A study of Mus musculus with 9 samples.

Results

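Pla2g1b encodes the group IB phospholipase A2, the secreted enzyme that the pancreas releases as a proenzyme and that digests dietary phospholipids in the gut. It was chosen by its own array values in this mouse stem cell series, because its expression was high in embryonic stem cells (ESCs) kept in 2i and in epiblast stem cells (EpiSCs) kept in CHIR/XAV, and dim in EpiSCs kept in FGF2/activin. All 9 of its array values were used in that choice, so they are given here as a description and are not tested. A search of the probe annotation by symbol found 1 probe set for Pla2g1b, which makes it 1 of 19938 genes with a probe set of their own. The search found 18 other genes with symbols that start with Pla2g, which were taken by name and not by value.

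Phospholipases A2 cut the middle fatty acid from a membrane phospholipid and so release a free fatty acid, often arachidonate, and a lysophospholipid. Small secreted enzymes with a disulphide-braced fold, larger cytosolic enzymes, calcium-independent enzymes and platelet-activating factor acetylhydrolases form the main branches of the family. Arachidonate feeds cyclooxygenases and lipoxygenases, which make prostaglandins and leukotrienes, and lysophospholipids are re-acylated or act on receptors of their own.

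The series holds total RNA on 9 single-colour Affymetrix arrays, in 3 groups of 3. EpiSCs are lines derived from the epiblast of the implanted embryo and stand for primed pluripotency, whereas ESCs kept in 2i stand for the naive state. The EpiSCs of the first group were kept in CHIR/XAV, which is CHIR99021, an inhibitor of the kinase GSK3, with XAV939, a tankyrase inhibitor that stabilises axin. The EpiSCs of the second group were kept in the growth factors FGF2 and activin. The strain label of both EpiSC groups is CD1. The ESCs of the third group are labelled strain 129 and were kept in 2i, a name commonly used for CHIR99021 together with the MEK inhibitor PD0325901. The labels give every sample the same medium with 10% fetal bovine serum and 1 common list of agents, with CHIR99021 at 3 µM, PD0325901 at 1 µM, XAV939 at 2 µM, and FGF2 and activin at 10 ng/ml each. The ESC comparisons therefore join strain, cell type and medium, which cannot be told apart. The tissue label of all 9 samples, EpiSCs included, reads embryonic stem cell. The labels do not say whether the 3 samples of a group were grown apart. P-values therefore describe array-to-array spread, part of which may be technical.

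Expression is given on the log2 scale, with 1 value for each probe set on each array, and a difference of 1 is 2-fold. They ran from 3.05 to 14.34 over all probe sets, with array medians of 5.57 to 5.65. Correlations over all probe sets were 0.992 to 0.995 between arrays of 1 group, 0.975 to 0.979 between the EpiSC groups, and 0.948 to 0.958 between EpiSCs and ESCs. Markers fitted the labels, since the naive factor Esrrb averaged 4.93 in CHIR/XAV EpiSCs, 4.72 in FGF2/activin EpiSCs and 10.08 in ESCs. The primed factor Otx2 averaged 9.10 in CHIR/XAV EpiSCs, 9.41 in FGF2/activin EpiSCs and 5.45 in ESCs. Pou5f1, a core pluripotency factor, averaged 11.59 in CHIR/XAV EpiSCs, 11.68 in FGF2/activin EpiSCs and 11.33 in ESCs. Sex-linked transcripts separated the EpiSC groups. Xist, the X inactivation RNA, averaged 9.12 in CHIR/XAV EpiSCs, 4.38 in FGF2/activin EpiSCs and 4.59 in ESCs. The Y-linked gene Uty averaged 4.28 in CHIR/XAV EpiSCs, 9.37 in FGF2/activin EpiSCs and 8.84 in ESCs. In every comparison between the EpiSC groups the cells and the medium therefore cannot be told apart.

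The upstream sequence of Pla2g1b is shown with those of Pla2g4e and Pla2g7, the other Pla2g genes with the largest differences described below, so that the promoters can be read side by side. Each is the 250 bases before the annotated gene start in RefSeq on GRCm38.p6, written 5′ to 3′ on the gene's own strand. Capitals mark a match to the TCF/LEF core motif CTTTGAA or CTTTGAT, searched on both strands.
Pla2g1b, chr5:115465892-115466141 (+ strand): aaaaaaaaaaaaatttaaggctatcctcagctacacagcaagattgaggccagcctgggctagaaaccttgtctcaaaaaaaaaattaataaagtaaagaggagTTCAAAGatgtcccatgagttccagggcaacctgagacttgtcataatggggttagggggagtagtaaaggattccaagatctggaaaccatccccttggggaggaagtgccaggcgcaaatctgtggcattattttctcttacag
Pla2g4e, chr2:120245336-120245585 (- strand): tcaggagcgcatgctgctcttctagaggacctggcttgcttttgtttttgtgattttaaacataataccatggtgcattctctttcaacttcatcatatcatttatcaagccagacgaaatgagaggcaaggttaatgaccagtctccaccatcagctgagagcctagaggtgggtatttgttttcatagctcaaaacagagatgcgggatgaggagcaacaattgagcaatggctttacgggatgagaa
Pla2g7, chr17:43568201-43568450 (+ strand): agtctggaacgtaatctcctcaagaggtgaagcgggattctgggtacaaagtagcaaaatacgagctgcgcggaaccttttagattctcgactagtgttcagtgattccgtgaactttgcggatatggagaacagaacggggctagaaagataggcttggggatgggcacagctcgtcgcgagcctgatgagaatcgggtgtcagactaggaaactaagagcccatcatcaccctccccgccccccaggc
The Pla2g1b window held 1 match, CTTTGAA on the opposite strand, which begins 146 bases before the start. The Pla2g4e and Pla2g7 windows held 0 matches. Of 32851 RefSeq promoters of the same length, 7.48% held at least 1 match. The Pla2g1b window held 1 CpG dinucleotide, against 4 in the Pla2g4e window, 14 in the Pla2g7 window and a median of 6 over all promoters. At most 1 CpG was found in 18.8% of promoters. The share of G and C was 42.4% in the Pla2g1b window, 43.2% in the Pla2g4e window and 52.8% in the Pla2g7 window, against a median of 52.4% over all promoters. These are counts of letters in a window. Neither binding nor DNA methylation was measured here.

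Pla2g1b was bright on the 6 arrays of the CHIR99021 cultures and dim on the 3 arrays of the FGF2/activin culture. Its log2 values were 11.90, 11.95 and 11.88 in CHIR/XAV EpiSCs. In FGF2/activin EpiSCs they were 5.71, 5.65 and 5.78. In ESCs they were 11.98, 12.03 and 12.16. The FGF2/activin values lay close to the array medians, and no array of that group came near those of the other 2 groups. The group means were 11.91 ± 0.03 in CHIR/XAV EpiSCs, 5.71 ± 0.06 in FGF2/activin EpiSCs and 12.06 ± 0.09 in ESCs (SD, n = 3 each).

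Between the EpiSC groups the Pla2g1b means differed by 6.20 log2 units, CHIR/XAV minus FGF2/activin, which is 73.4-fold. The gap between the lowest CHIR/XAV array and the highest FGF2/activin array was 6.11 log2 units. FGF2/activin EpiSCs against ESCs gave a difference of -6.34, which is 81.2-fold, with a gap of 6.20 between the nearest arrays. CHIR/XAV EpiSCs differed from ESCs by -0.14, which is 1.10-fold. Those groups did not overlap, but the nearest arrays lay only 0.04 apart. In the order of levels ESCs therefore stood first and CHIR/XAV EpiSCs close behind, with FGF2/activin EpiSCs far below. The order of the upper 2 rests on a difference smaller than the range of the ESC arrays. Scanner output was not analysed here, which means that the dim FGF2/activin values cannot be separated from background. If they were background, both fold changes would be understated.

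**Figure D1:**
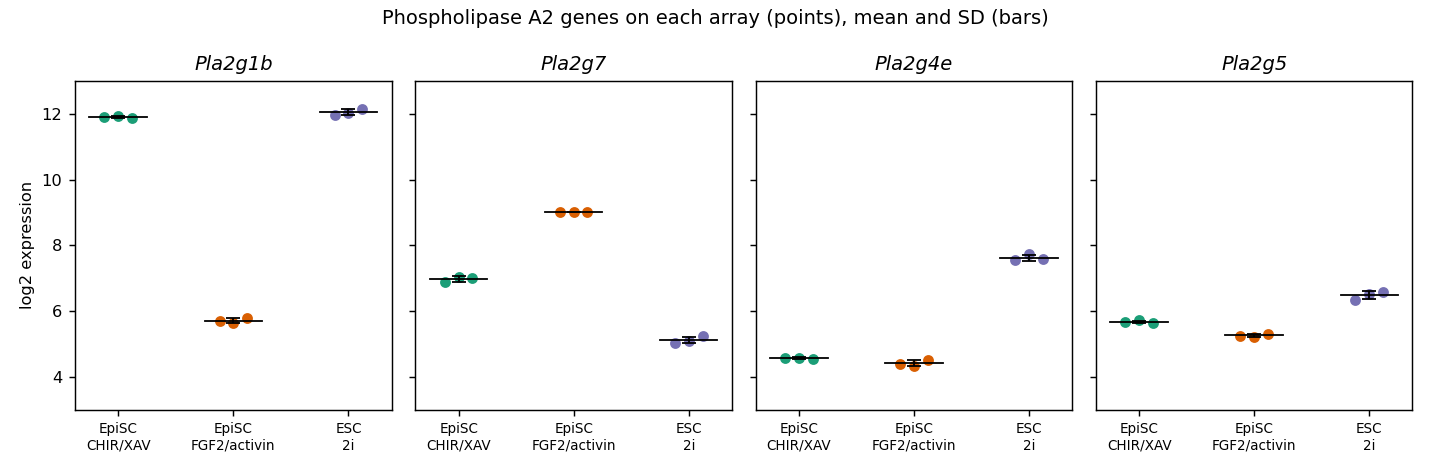
Log2 expression (vertical axis) of Pla2g1b, Pla2g7, Pla2g4e and Pla2g5 in CHIR/XAV EpiSCs, FGF2/activin EpiSCs and ESCs in 2i, with 1 point per array and the mean and SD of each group as bars (n = 3). Pla2g1b is dim in FGF2/activin EpiSCs alone at 5.65 to 5.78, where Pla2g7 is brightest, while Pla2g4e is bright in ESCs alone, and levels can be compared within a gene only.

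Over all genes, the pattern was ranked by the smaller of 2 log2 differences, CHIR/XAV EpiSCs minus FGF2/activin EpiSCs and ESCs minus FGF2/activin EpiSCs. Pla2g1b stood first of 19938 genes at 6.20. Next came the chromatin-bound pluripotency factor Dppa4 at 4.12, the quinone reductase gene Nqo1 at 3.91, the ubiquitin ligase gene Trim25 at 3.76 and the meiotic chromosome axis gene Sycp3 at 3.75. Pla2g1b was the only gene past 5 on this measure, and 2 genes passed 4, the other being Dppa4. In FGF2/activin EpiSCs, 104 genes were lower than in both other cultures by at least 1 log2 unit, 24 by at least 2 and 10 by at least 3. In the opposite direction 341 genes were higher in FGF2/activin EpiSCs than in both other cultures by at least 1, 43 by at least 2, 3 by at least 3 and 0 by at least 4. The comparisons of FGF2/activin EpiSCs with the other 2 cultures share the FGF2/activin arrays, and the ranking is a description that carries no test.

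**Figure D2:**
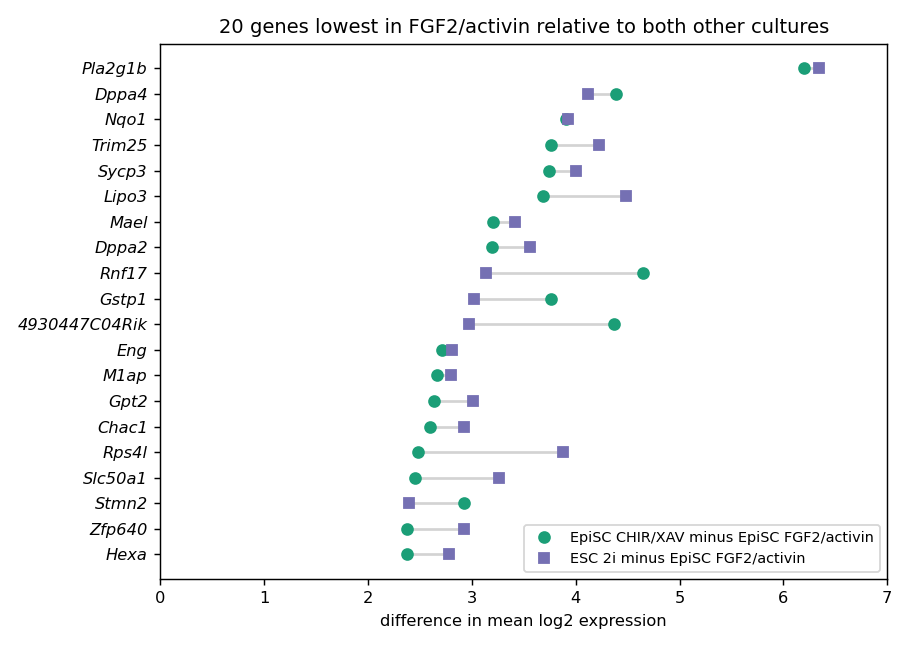
Differences in mean log2 expression (horizontal axis) for the 20 genes lowest in FGF2/activin EpiSCs relative to both other cultures, as CHIR/XAV EpiSCs minus FGF2/activin EpiSCs (circles) and ESCs in 2i minus FGF2/activin EpiSCs (squares). Pla2g1b lies alone at 6.20 and 6.34, and Dppa4 follows at 4.38 and 4.12.

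Genes with the pattern most like that of Pla2g1b were sought by Pearson correlation over the 9 arrays, among the 719 other genes whose group means spanned at least 2 log2 units. With 3 groups a high correlation mostly says that a gene is low in the same group. The nearest gene was Nqo1 (r = 0.9992), with 9.10, 9.09 and 9.001 in CHIR/XAV EpiSCs, 5.13, 5.24 and 5.10 in FGF2/activin EpiSCs, and 9.04, 9.15 and 9.06 in ESCs. Mael (r = 0.9989), which acts in silencing of transposons in the germ line, averaged 7.45 in CHIR/XAV EpiSCs, 4.24 in FGF2/activin EpiSCs and 7.66 in ESCs. M1ap (r = 0.9984), needed for meiosis in male germ cells, averaged 7.24 in CHIR/XAV EpiSCs, 4.58 in FGF2/activin EpiSCs and 7.37 in ESCs. Eng (r = 0.9983), a co-receptor of the TGF-beta family, averaged 8.07 in CHIR/XAV EpiSCs, 5.36 in FGF2/activin EpiSCs and 8.17 in ESCs. Sycp3 (r = 0.9979) averaged 8.76 in CHIR/XAV EpiSCs, 5.01 in FGF2/activin EpiSCs and 9.02 in ESCs.

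Dppa4 (r = 0.9969), Dppa2 (r = 0.9964), Trim25 (r = 0.9959), the alanine transaminase gene Gpt2 (r = 0.9951) and the retinoic acid binding protein gene Crabp1 (r = 0.9943) completed the nearest 10. Dppa4 averaged 9.23 in CHIR/XAV EpiSCs, 4.85 in FGF2/activin EpiSCs and 8.97 in ESCs, and was the one named gene of these with a higher mean in CHIR/XAV EpiSCs than in ESCs. Its chromosomal neighbour Dppa2 averaged 10.94 in CHIR/XAV EpiSCs, 7.75 in FGF2/activin EpiSCs and 11.31 in ESCs. The 10 genes lay on chromosomes 1, 2, 6, 8, 9, 10, 11 and 16, and none lay on chromosome 5 with Pla2g1b. A correlation of at least 0.99 was reached by 10 genes and of at least 0.95 by 32. Their shortfall in FGF2/activin EpiSCs was smaller than that of Pla2g1b in every case, with CHIR/XAV minus FGF2/activin differences of 1.99 for Crabp1 to 4.38 for Dppa4.

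**Figure D3:**
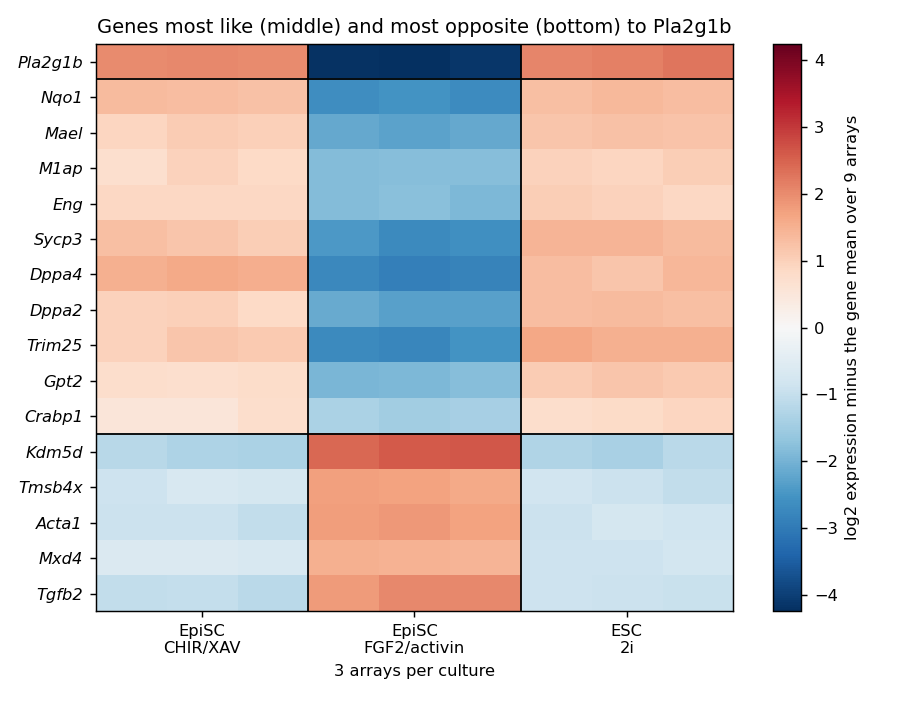
Log2 values of Pla2g1b, of the 10 genes with the highest correlation to it and of 5 with the lowest, on 9 arrays, each gene centred on its mean over the arrays. The first 11 genes are low on the 3 FGF2/activin arrays alone and the last 5 are high there, with Pla2g1b showing the deepest shortfall.

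Among the other 18 Pla2g genes a call means an adjusted p under 0.05 in limma (Benjamini-Hochberg over 19938 genes). Between the EpiSC groups, CHIR/XAV against FGF2/activin, 5 were higher and 3 lower, 8 of 18 where 41.6% of all genes were called. Their median difference was 0.09, against 0.05 over all genes. In CHIR/XAV EpiSCs against ESCs 4 were higher and 3 lower, 7 of 18 where 46.7% of all genes were called, with a median of -0.07 against -0.03. With each array centred on its median that count became 4 higher and 7 lower. In FGF2/activin EpiSCs against ESCs 4 were higher and 7 lower, 11 of 18 where 61.3% of all genes were called, with a median of -0.10 against -0.08. The counts were thus near the share called over all genes. By direction, 20.5% of all genes were higher and 21.1% lower in CHIR/XAV than in FGF2/activin EpiSCs. In CHIR/XAV EpiSCs against ESCs 24.7% of all genes were higher and 22.1% lower. For FGF2/activin EpiSCs against ESCs the shares were 27.8% higher and 33.5% lower.

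Pla2g7, Pla2g4e and Pla2g5 were the other Pla2g genes that passed both the test and a 2-fold change in some comparison. Counts this small are not read as a difference from the shares over all genes. In the EpiSC comparison 1 of the 18, Pla2g7, was lower in CHIR/XAV EpiSCs and 0 were higher, where 2.5% of all genes were lower and 1.62% higher by that size. In CHIR/XAV EpiSCs against ESCs Pla2g7 was higher and Pla2g4e lower, where 5.03% of all genes were higher and 3.3% lower. In FGF2/activin EpiSCs against ESCs Pla2g7 was higher, and Pla2g4e and Pla2g5 were lower, where 6.66% of all genes were higher and 3.45% lower.

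**Figure D4:**
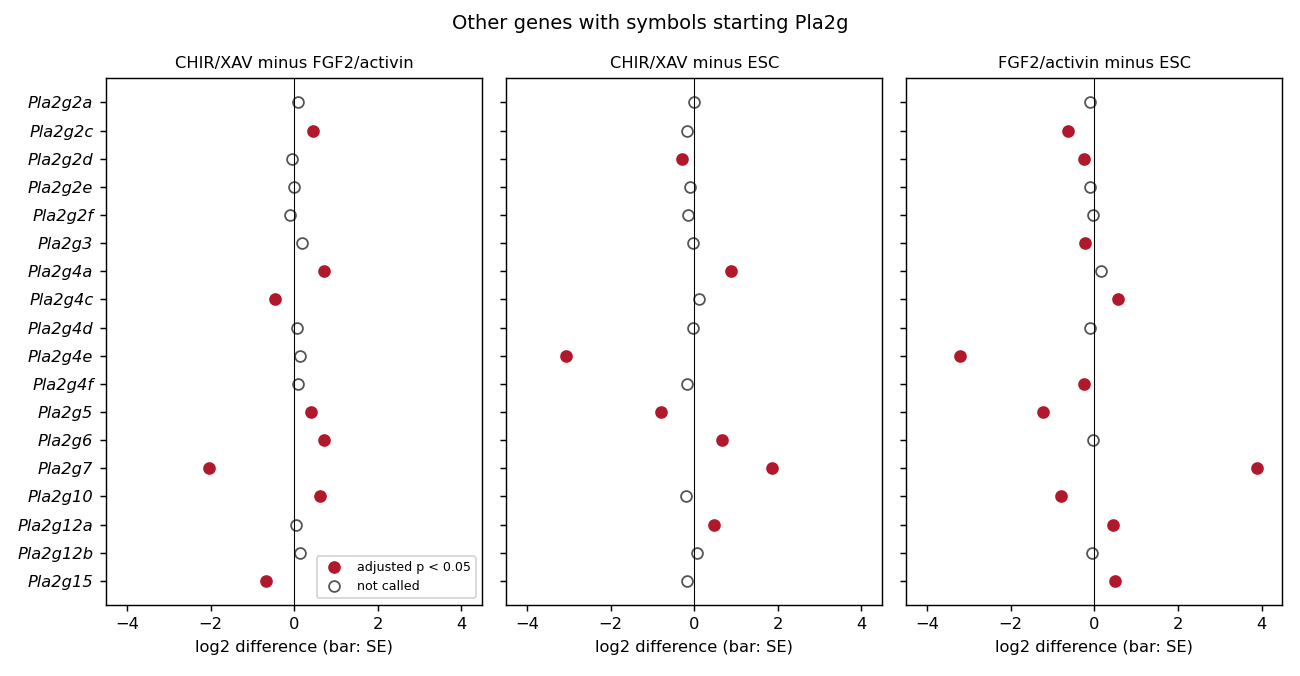
Log2 differences (horizontal axis) of the 18 other Pla2g genes in 3 panels, CHIR/XAV minus FGF2/activin EpiSCs, CHIR/XAV EpiSCs minus ESCs and FGF2/activin EpiSCs minus ESCs, with the standard error of the limma fit as bars and filled points for genes called. Pla2g7 stands at -2.04, 1.86 and 3.90 and Pla2g4e at 0.14, -3.06 and -3.20, while most others lie near 0.

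The closest relatives of Pla2g1b are the other small secreted enzymes. Pla2g5, a secreted enzyme active on phosphatidylcholine membranes, was 5.66, 5.71 and 5.65 in CHIR/XAV EpiSCs, 5.25, 5.22 and 5.31 in FGF2/activin EpiSCs, and 6.34, 6.52 and 6.58 in ESCs. Its 3 groups did not overlap, with the FGF2/activin arrays lowest. The difference was 0.41 between CHIR/XAV and FGF2/activin EpiSCs (SE 0.07, adjusted p = 0.00037 in limma), -0.81 for CHIR/XAV EpiSCs against ESCs (adjusted p = 3.73e-07) and -1.22 for FGF2/activin EpiSCs against ESCs (adjusted p = 3.21e-09). Pla2g10, another secreted enzyme with high activity on phosphatidylcholine, was 5.41, 5.33 and 5.55 in CHIR/XAV EpiSCs, 4.80, 4.77 and 4.89 in FGF2/activin EpiSCs, and 5.44, 5.63 and 5.81 in ESCs. Here too the FGF2/activin arrays lay below all others, while the other groups overlapped. Its differences were 0.61 between CHIR/XAV and FGF2/activin EpiSCs (adjusted p = 0.0001 in limma) and -0.80 between FGF2/activin EpiSCs and ESCs (adjusted p = 3.89e-06). The difference of -0.19 between CHIR/XAV EpiSCs and ESCs was not called (adjusted p = 0.1 in limma) and became called with median centring (adjusted p = 0.0152) or quantile normalization (adjusted p = 0.0305).

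Pla2g2c was 5.29, 5.19 and 5.49 in CHIR/XAV EpiSCs, 4.72, 4.71 and 5.18 in FGF2/activin EpiSCs, and 5.503, 5.45 and 5.54 in ESCs. One FGF2/activin array lay close to the CHIR/XAV values, and the groups still did not overlap. It was higher in CHIR/XAV than in FGF2/activin EpiSCs by 0.45 (adjusted p = 0.00549 in limma) and differed by -0.63 between FGF2/activin EpiSCs and ESCs (adjusted p = 0.000308). Pla2g5, Pla2g10 and Pla2g2c thus had Pla2g1b's direction in both comparisons with FGF2/activin EpiSCs, at 0.41 to 0.61 log2 units between the EpiSC groups where Pla2g1b had 6.20. All 3 were dim, with no array above 5.81 apart from Pla2g5 in ESCs.

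Pla2g12a, a secreted enzyme of a separate branch, was higher than in ESCs both in CHIR/XAV EpiSCs by 0.48 (adjusted p = 0.000349 in limma) and in FGF2/activin EpiSCs by 0.44 (adjusted p = 0.000557). The second call was lost with quantile normalization, at 0.18 (adjusted p = 0.126). Pla2g2d was lower than in ESCs, by a difference of -0.30 in CHIR/XAV EpiSCs (adjusted p = 0.00747 in limma) and -0.25 in FGF2/activin EpiSCs (adjusted p = 0.0175). Pla2g3, related to bee venom phospholipase, differed by -0.21 between FGF2/activin EpiSCs and ESCs (adjusted p = 0.0303 in limma). Quantile normalization ended the FGF2/activin calls of Pla2g2d (adjusted p = 0.219 in limma) and Pla2g3 (adjusted p = 0.576). The Pla2g2d call was also lost without ESC replicate 1 (adjusted p = 0.0654 in limma), ESC replicate 3 (adjusted p = 0.0605) or FGF2/activin replicate 2 (adjusted p = 0.0912). The Pla2g3 call was lost without ESC replicate 1 or 2 or any 1 FGF2/activin replicate (adjusted p = 0.0512 to 0.0881 in limma). Pla2g2a, Pla2g2e, Pla2g2f and Pla2g12b were called in none of the 3 comparisons, with differences of -0.14 to 0.14. Pla2g2f became called for CHIR/XAV EpiSCs against ESCs with median centring, at -0.24 (adjusted p = 0.00615 in limma), and against FGF2/activin EpiSCs with quantile normalization, at -0.21 (adjusted p = 0.0218).

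Pla2g7, the lipoprotein-associated platelet-activating factor acetylhydrolase, ran opposite to Pla2g1b between the EpiSC groups. It was 6.87, 7.04 and 7.01 in CHIR/XAV EpiSCs, 9.003, 9.03 and 9.02 in FGF2/activin EpiSCs, and 5.04, 5.08 and 5.23 in ESCs. The 3 groups were far apart, with FGF2/activin EpiSCs highest and ESCs lowest. It was lower in CHIR/XAV than in FGF2/activin EpiSCs, with a difference of -2.04 (4.12-fold, adjusted p = 4.98e-11 in limma), and higher than in ESCs by 1.86 in CHIR/XAV EpiSCs (adjusted p = 3.84e-11) and by 3.90 in FGF2/activin EpiSCs (14.9-fold, adjusted p = 1.69e-14). Pafah2, an intracellular enzyme that also hydrolyses platelet-activating factor, averaged 6.16 in CHIR/XAV EpiSCs, 7.18 in FGF2/activin EpiSCs and 5.91 in ESCs, a difference of -1.03 between the EpiSC groups (adjusted p = 1.54e-05 in limma).

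Pla2g4e separated ESCs from both EpiSC groups. This calcium-dependent member of the cytosolic branch acts as an N-acyltransferase on phosphatidylethanolamine. It was 4.57, 4.59 and 4.54 in CHIR/XAV EpiSCs, 4.41, 4.34 and 4.52 in FGF2/activin EpiSCs, and 7.57, 7.73 and 7.58 in ESCs. Both EpiSC groups were dim and the ESC arrays stood clear of them. The difference from ESCs was -3.06 in CHIR/XAV EpiSCs (8.35-fold, adjusted p = 2.1e-13 in limma) and -3.20 in FGF2/activin EpiSCs (9.22-fold, adjusted p = 9.86e-14), and the EpiSC groups differed by 0.14 (adjusted p = 0.125). Pla2g4d and Pla2g4f, which lie on chromosome 2 with Pla2g4e, were dim in all groups, at 4.57 and 4.45 in CHIR/XAV EpiSCs, 4.501 and 4.36 in FGF2/activin EpiSCs, and 4.61 and 4.62 in ESCs. Of these only Pla2g4f was called, at -0.26 in FGF2/activin EpiSCs against ESCs (adjusted p = 0.0151 in limma), and quantile normalization ended that call (adjusted p = 0.19), as did leaving out ESC replicate 2 (adjusted p = 0.0751) or FGF2/activin replicate 2 (adjusted p = 0.0511). With median centring Pla2g4d was called in the same comparison, at -0.18 (adjusted p = 0.0343 in limma), and Pla2g4f in CHIR/XAV EpiSCs against ESCs, at -0.27 (adjusted p = 0.0134). Pla2g4b shares its probe set with Jmjd7 and a predicted gene and was not assigned a value.

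Pla2g4a, the cytosolic enzyme that releases arachidonate from intracellular membranes, was 5.48, 5.503 and 5.69 in CHIR/XAV EpiSCs, 4.87, 4.85 and 4.83 in FGF2/activin EpiSCs, and 4.57, 4.62 and 4.88 in ESCs. The CHIR/XAV arrays were highest and the others overlapped. It was higher in CHIR/XAV EpiSCs than in FGF2/activin EpiSCs by 0.71 (adjusted p = 1.5e-05 in limma) and than in ESCs by 0.87 (adjusted p = 1.19e-06). Its difference of 0.16 between FGF2/activin EpiSCs and ESCs was not called (adjusted p = 0.127 in limma) and became called with quantile normalization, at 0.32 (adjusted p = 0.00575). The calcium-independent enzyme gene Pla2g6 was 8.21, 8.25 and 8.27 in CHIR/XAV EpiSCs, 7.43, 7.75 and 7.44 in FGF2/activin EpiSCs, and 7.57, 7.65 and 7.52 in ESCs, and was likewise higher in CHIR/XAV EpiSCs than in FGF2/activin EpiSCs by 0.70 (adjusted p = 1.18e-05 in limma) and than in ESCs by 0.66 (adjusted p = 1.3e-05). Between FGF2/activin EpiSCs and ESCs it differed by -0.04 (adjusted p = 0.691 in limma), or by -0.24 with quantile normalization (adjusted p = 0.0174). The 20 measured genes nearest to Pla2g6 on chromosome 15 had a median difference of 0.19 between CHIR/XAV and FGF2/activin EpiSCs. Of them 9 were higher and 3 lower, where 20.5% of all genes were higher and 21.1% lower, with a median of 0.05. For CHIR/XAV EpiSCs against ESCs their median was 0.31, with 13 higher and 2 lower. The shares over all genes were 24.7% and 22.1%, with a median of -0.03. For FGF2/activin EpiSCs against ESCs their median was 0.03, with 9 higher and 5 lower. The shares there were 27.8% and 33.5%, with a median of -0.08. The part of that stretch in the Pla2g6 result was not tested.

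Pla2g15, the lysosomal phospholipase A2, was 6.63, 6.64 and 6.78 in CHIR/XAV EpiSCs, 7.28, 7.53 and 7.25 in FGF2/activin EpiSCs, and 6.90, 6.88 and 6.77 in ESCs, with the FGF2/activin arrays highest. It differed by -0.67 between CHIR/XAV and FGF2/activin EpiSCs (adjusted p = 1.68e-05 in limma) and by 0.50 between FGF2/activin EpiSCs and ESCs (adjusted p = 0.000142). Its difference of -0.17 between CHIR/XAV EpiSCs and ESCs was not called (adjusted p = 0.115 in limma) and became called with median centring, at -0.27 (adjusted p = 0.0136), and with quantile normalization, at -0.32 (adjusted p = 0.00177). Pla2g4c, a calcium-independent relative of the cytosolic enzymes, was likewise highest in FGF2/activin EpiSCs, with -0.46 between CHIR/XAV and FGF2/activin EpiSCs (adjusted p = 0.000342 in limma) and 0.56 between FGF2/activin EpiSCs and ESCs (adjusted p = 3.15e-05). Of the 3 genes called lower in CHIR/XAV than in FGF2/activin EpiSCs, Pla2g7, Pla2g15 and Pla2g4c, none is a small secreted enzyme. With quantile normalization the small secreted enzyme gene Pla2g2f was called lower there too, at -0.21 (adjusted p = 0.0218 in limma).

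Downstream of the phospholipases, 20 of 21 listed enzymes that turn arachidonate into eicosanoids were measured. Between CHIR/XAV and FGF2/activin EpiSCs 12 were higher and 3 lower, where 20.5% of all genes were higher and 21.1% lower, and 10 were higher and 3 lower under either other scaling. The median difference was 0.21, against 0.05 over all genes. Ptges, the inducible prostaglandin E synthase, averaged 7.91 in CHIR/XAV EpiSCs, 6.27 in FGF2/activin EpiSCs and 5.93 in ESCs, with a difference of 1.64 between the EpiSC groups (adjusted p = 2.7e-10 in limma). The 12/15-lipoxygenase gene Alox15 averaged 7.06 in CHIR/XAV EpiSCs, 5.46 in FGF2/activin EpiSCs and 5.05 in ESCs (difference 1.60 between the EpiSC groups, adjusted p = 4.45e-10 in limma). The prostacyclin synthase gene Ptgis averaged 7.94 in CHIR/XAV EpiSCs, 6.47 in FGF2/activin EpiSCs and 6.61 in ESCs (difference 1.47 between the EpiSC groups, adjusted p = 1.25e-09 in limma). Ptgs2, the inducible cyclooxygenase that supplies prostaglandin synthases, ran the other way, at 5.93 in CHIR/XAV EpiSCs, 7.20 in FGF2/activin EpiSCs and 5.06 in ESCs (difference -1.28 between the EpiSC groups, adjusted p = 1.26e-08 in limma). Alox5, the lipoxygenase that starts leukotriene synthesis, averaged 6.86 in CHIR/XAV EpiSCs, 6.58 in FGF2/activin EpiSCs and 5.22 in ESCs. Ptgr1, which inactivates prostaglandins and leukotrienes, averaged 7.497 in CHIR/XAV EpiSCs, 7.29 in FGF2/activin EpiSCs and 8.76 in ESCs. Against ESCs, 7 of the 20 enzymes were higher and 4 lower in CHIR/XAV EpiSCs, where 24.7% of all genes were higher and 22.1% lower. Median centring gave 7 and 7 there, and quantile normalization 9 and 6. The count was 7 higher and 7 lower for FGF2/activin EpiSCs against ESCs, where 27.8% of all genes were higher and 33.5% lower. That count became 6 and 9 with median centring and 5 and 7 with quantile normalization.

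Of 13 listed eicosanoid receptors 12 were measured, and between CHIR/XAV and FGF2/activin EpiSCs 0 were higher and 2 lower, where 20.5% of all genes were higher and 21.1% lower. Those were the leukotriene receptor gene Cysltr1, at 8.52 in CHIR/XAV EpiSCs, 9.60 in FGF2/activin EpiSCs and 5.03 in ESCs, and the prostaglandin E2 receptor gene Ptger4, at 5.66 in CHIR/XAV EpiSCs, 6.74 in FGF2/activin EpiSCs and 4.64 in ESCs. Their differences were -1.08 each between the EpiSC groups (adjusted p = 9.76e-08 and 4.85e-08 in limma). Both were higher than in ESCs in each EpiSC group, Cysltr1 by 3.49 in CHIR/XAV EpiSCs and 4.57 in FGF2/activin EpiSCs. The ESC comparison gave 2 receptors higher and 2 lower for CHIR/XAV EpiSCs, which became 2 and 4 with median centring and 2 and 1 with quantile normalization. For FGF2/activin EpiSCs it gave 2 higher and 3 lower, which became 2 and 5 with median centring and 2 and 1 with quantile normalization. Over all genes the shares were 24.7% higher and 22.1% lower for CHIR/XAV EpiSCs, and 27.8% higher and 33.5% lower for FGF2/activin EpiSCs.

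Of 17 listed genes that handle lysophospholipids, the other product of these enzymes, 15 were measured. Between CHIR/XAV and FGF2/activin EpiSCs 1 was higher and 7 lower, or 2 and 4 with quantile normalization, where 20.5% of all genes were higher and 21.1% lower. The comparison with ESCs gave 9 higher and 4 lower for CHIR/XAV EpiSCs, where 24.7% of all genes were higher and 22.1% lower. For FGF2/activin EpiSCs it gave 10 higher and 3 lower, where the shares were 27.8% and 33.5%. Lpar4, a lysophosphatidic acid receptor, averaged 11.03 in CHIR/XAV EpiSCs, 11.13 in FGF2/activin EpiSCs and 8.66 in ESCs, so that both EpiSC groups exceeded ESCs, by 2.37 in CHIR/XAV EpiSCs (adjusted p = 5.31e-13 in limma) and 2.47 in FGF2/activin EpiSCs (adjusted p = 2.53e-13). Lyplal1, a relative of the lysophospholipases, was lowest in CHIR/XAV EpiSCs, at 5.601 there, 7.07 in FGF2/activin EpiSCs and 8.55 in ESCs, a difference of -1.47 between the EpiSC groups (adjusted p = 2.58e-09 in limma). The lysophosphatidic acid receptor gene Lpar6 averaged 7.57 in CHIR/XAV EpiSCs, 8.63 in FGF2/activin EpiSCs and 6.71 in ESCs, a difference of -1.06 between the EpiSC groups (adjusted p = 6.74e-07 in limma). Lpcat4, which re-acylates lysophospholipids, averaged 8.39 in CHIR/XAV EpiSCs, 7.96 in FGF2/activin EpiSCs and 7.12 in ESCs. The lysophospholipase gene Lypla2 averaged 8.21 in CHIR/XAV EpiSCs, 8.99 in FGF2/activin EpiSCs and 7.85 in ESCs.

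Other genes of the pancreatic acinar cell, where Pla2g1b is normally made, showed no difference of its size. Of 25 listed, 21 were measured, and their mean level per array was 4.72 to 4.83 in CHIR/XAV EpiSCs, 4.60 to 4.70 in FGF2/activin EpiSCs and 4.83 to 4.88 in ESCs. Between CHIR/XAV and FGF2/activin EpiSCs 3 were higher and 0 lower, where 20.5% of all genes were higher and 21.1% lower, with none past 2-fold. The median difference was 0.11, against 0.05 over all genes. In CHIR/XAV EpiSCs against ESCs 1 was higher and 3 lower, or 1 and 9 with median centring, where 24.7% of all genes were higher and 22.1% lower. For FGF2/activin EpiSCs against ESCs 0 were higher and 9 lower, where 27.8% of all genes were higher and 33.5% lower. That count became 0 and 13 with median centring and 2 and 2 with quantile normalization. The median there was -0.22, against -0.08 over all genes. With quantile normalization it was -0.065, against -0.034 over all genes. The median between the EpiSC groups then became 0.004, against 0.008 over all genes. A direction shared with Pla2g1b in the comparisons with FGF2/activin EpiSCs thus depended on the scaling. The member that changed by 2-fold was Clps, the colipase that helps pancreatic lipase, at 5.09 in CHIR/XAV EpiSCs, 5.001 in FGF2/activin EpiSCs and 6.52 in ESCs. Its difference from ESCs was -1.43 in CHIR/XAV EpiSCs (adjusted p = 3.65e-10 in limma) and -1.52 in FGF2/activin EpiSCs (adjusted p = 1.39e-10), and 0.09 between the EpiSC groups (adjusted p = 0.335). In bulk RNA, fewer cells that express a gene and less RNA per cell cannot be told apart.

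Markers of other cells that the cultures could hold were compared in the same way. The 11 fibroblast or feeder markers had a mean level per array of 5.31 to 5.37 in CHIR/XAV EpiSCs, 5.54 to 5.58 in FGF2/activin EpiSCs and 5.26 to 5.32 in ESCs. Between CHIR/XAV and FGF2/activin EpiSCs 1 of them was higher and 3 lower. Those past 2-fold ran in opposite directions. Acta2, a smooth muscle actin, averaged 5.96 in CHIR/XAV EpiSCs, 9.41 in FGF2/activin EpiSCs and 6.98 in ESCs. Thy1, a surface glycoprotein of fibroblasts and neurons, averaged 7.21 in CHIR/XAV EpiSCs, 5.70 in FGF2/activin EpiSCs and 5.45 in ESCs, a difference of 1.51 between the EpiSC groups (adjusted p = 1.02e-08 in limma). Of these markers 1 was higher and 2 lower in CHIR/XAV EpiSCs against ESCs, or 1 and 4 with median centring. The counts were 5 higher and 2 lower for FGF2/activin EpiSCs against ESCs, or 3 and 3 with median centring. The 12 endoderm markers had a mean level per array of 5.14 to 5.30 in CHIR/XAV EpiSCs, 5.04 to 5.16 in FGF2/activin EpiSCs and 5.21 to 5.24 in ESCs. Between CHIR/XAV and FGF2/activin EpiSCs 5 of them were higher and 1 lower, or 2 and 1 with quantile normalization. Set against ESCs, 0 were higher and 1 lower for CHIR/XAV EpiSCs, and 1 was higher and 7 lower for FGF2/activin EpiSCs, or 1 and 3 with quantile normalization. The shares over all genes were 20.5% higher and 21.1% lower between the EpiSC groups, 24.7% and 22.1% for CHIR/XAV EpiSCs against ESCs, and 27.8% and 33.5% for FGF2/activin EpiSCs against ESCs. Log2 levels near 5 on these arrays include background, so no marker can be said to be absent. The part of these cells in the Pla2g1b difference was not tested.

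The genes beside Pla2g1b on chromosome 5 did not share its difference. In the RefSeq gene order the 5 measured genes on each side are Srsf9, Gatc, Triap1, Cox6a1 and Msi1 on one side and Sirt4, Pxn, Rplp0, Gcn1 and 1110006O24Rik on the other, a stretch of 19 annotated genes of which 11 were measured. Between CHIR/XAV and FGF2/activin EpiSCs the 10 neighbours differed by -0.23 to 0.75, with a median of 0.12, and 1 was called higher and 0 lower, where 41.6% of all genes were called. Cox6a1, at -0.23 (adjusted p = 0.0561 in limma), and Gatc, at 0.19 (adjusted p = 0.0542), lay just outside the threshold and passed it under some alternatives. The gene called was Msi1, which lies next to Pla2g1b and encodes an RNA-binding protein of neural progenitors. It was 8.20, 8.40 and 8.46 in CHIR/XAV EpiSCs, 7.51, 7.70 and 7.58 in FGF2/activin EpiSCs, and 7.80, 7.67 and 7.77 in ESCs. It was higher in CHIR/XAV EpiSCs by 0.75 against FGF2/activin EpiSCs (SE 0.08, adjusted p = 4.96e-06 in limma) and by 0.61 against ESCs (adjusted p = 2.56e-05). Its difference of -0.15 between FGF2/activin EpiSCs and ESCs was not called (adjusted p = 0.135 in limma) and became called with median centring, at -0.22 (adjusted p = 0.0288), and with quantile normalization, at -0.34 (adjusted p = 0.00172).

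Sirt4, a mitochondrial sirtuin and the neighbour on the other side, was 5.41, 5.49 and 5.51 in CHIR/XAV EpiSCs, 5.31, 5.24 and 5.36 in FGF2/activin EpiSCs, and 6.01, 6.22 and 6.09 in ESCs. The ESC arrays were highest, and the EpiSC groups differed by 0.17 (adjusted p = 0.0771 in limma). Sirt4 was lower than in ESCs in CHIR/XAV EpiSCs (adjusted p = 4.46e-06 in limma) and in FGF2/activin EpiSCs, at -0.80 (adjusted p = 3.11e-07). Over the 10 neighbours, 5 were higher and 3 lower in CHIR/XAV EpiSCs against ESCs, where 46.7% of all genes were called. The neighbours had 3 higher and 3 lower for FGF2/activin EpiSCs against ESCs, near the 61.3% called over all genes.

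**Figure D5:**
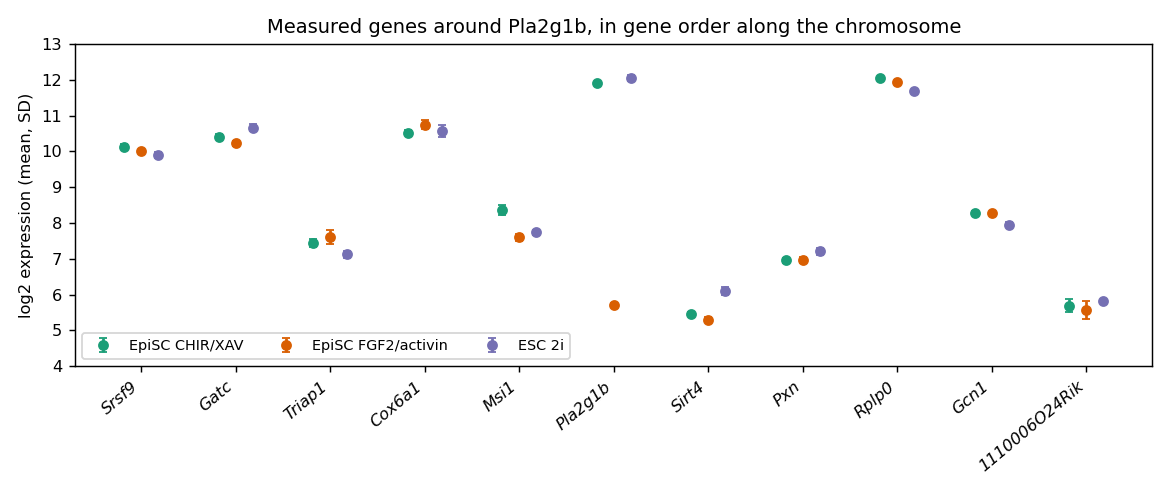
Mean log2 expression (vertical axis) with SD (n = 3) of Pla2g1b and the 5 measured genes on either side of it on chromosome 5, in gene order, for CHIR/XAV EpiSCs, FGF2/activin EpiSCs and ESCs in 2i. The FGF2/activin mean of Pla2g1b lies 6.20 below the CHIR/XAV mean, while no neighbour differs by more than 0.75 between the EpiSC groups.

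Readouts of the pathways that the media act on were set beside Pla2g1b. Of 16 measured Wnt/beta-catenin targets 3 were higher and 6 lower in CHIR/XAV than in FGF2/activin EpiSCs, with a median of -0.09 and none past 2-fold, where Pla2g1b differed by 6.20. Over all genes 20.5% were higher and 21.1% lower in that comparison, and the median was 0.05. Myc averaged 9.66 in CHIR/XAV EpiSCs, 9.58 in FGF2/activin EpiSCs and 6.92 in ESCs. Lgr5, a receptor for R-spondins, averaged 7.69 in CHIR/XAV EpiSCs, 7.498 in FGF2/activin EpiSCs and 4.77 in ESCs. The transcription factor gene Ascl2 averaged 6.39 in CHIR/XAV EpiSCs, 6.51 in FGF2/activin EpiSCs and 4.89 in ESCs. Notum, which inactivates Wnt proteins, ran the other way, at 5.24 in CHIR/XAV EpiSCs, 5.18 in FGF2/activin EpiSCs and 7.80 in ESCs. With ESCs as the base, CHIR/XAV EpiSCs had 6 targets higher and 6 lower, or 4 and 8 under either other scaling, where 24.7% of all genes were higher and 22.1% lower. FGF2/activin EpiSCs had 8 higher and 6 lower, or 5 and 6 with quantile normalization, where the shares were 27.8% and 33.5%.

 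Of 15 FGF/ERK targets 2 were higher and 8 lower in CHIR/XAV than in FGF2/activin EpiSCs, with a median of -0.28. Quantile normalization gave 2 and 7, with a median of -0.15. The share over all genes was 20.5% higher and 21.1% lower, with a median of 0.05. Among them, Dusp6, a phosphatase that limits ERK, averaged 10.11 in CHIR/XAV EpiSCs, 10.24 in FGF2/activin EpiSCs and 5.99 in ESCs. The feedback inhibitor gene Spry4 averaged 8.27 in CHIR/XAV EpiSCs, 9.06 in FGF2/activin EpiSCs and 4.75 in ESCs. Etv4 and Dusp4 averaged 7.35 and 8.04 in CHIR/XAV EpiSCs, 7.44 and 8.09 in FGF2/activin EpiSCs, and 4.93 and 5.81 in ESCs. Phlda1 and the immediate early gene Egr1 were past 2-fold between the EpiSC groups, at 6.71 and 6.07 in CHIR/XAV EpiSCs, 8.62 and 7.17 in FGF2/activin EpiSCs, and 5.55 and 4.60 in ESCs. Against ESCs, 12 ERK targets were higher and 1 lower in CHIR/XAV EpiSCs, where 24.7% of all genes were higher and 22.1% lower. In FGF2/activin EpiSCs 13 were higher and 1 lower, where the shares were 27.8% and 33.5%. A link between these targets and the Pla2g1b levels was not tested.

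Of 8 measured Nodal/activin targets 1 was higher and 7 lower in CHIR/XAV than in FGF2/activin EpiSCs, with a median of -1.22. Over all genes 20.5% were higher and 21.1% lower there, with a median of 0.05. Lefty1, an inhibitor of Nodal and a target of it, averaged 4.62 in CHIR/XAV EpiSCs, 7.89 in FGF2/activin EpiSCs and 8.99 in ESCs. Lefty2 averaged 4.82 in CHIR/XAV EpiSCs, 6.20 in FGF2/activin EpiSCs and 8.54 in ESCs. The ligand gene Nodal, its co-receptor gene Tdgf1 and the transcription factor gene Eomes were highest in FGF2/activin EpiSCs, at 8.84, 11.33 and 7.43 in CHIR/XAV EpiSCs, 10.17, 12.48 and 8.72 in FGF2/activin EpiSCs, and 8.87, 9.98 and 6.40 in ESCs. Gdf3, a ligand of the same family, was the target higher in CHIR/XAV than in FGF2/activin EpiSCs, at 6.83 in CHIR/XAV EpiSCs, 5.52 in FGF2/activin EpiSCs and 8.88 in ESCs. Relative to ESCs 3 targets were higher and 4 lower for CHIR/XAV EpiSCs, where 24.7% of all genes were higher and 22.1% lower. For FGF2/activin EpiSCs 4 were higher and 4 lower, where the shares were 27.8% and 33.5%. The naive ESC markers, 13 measured, were all lower than in ESCs in CHIR/XAV EpiSCs, and 12 were lower and 1 higher in FGF2/activin EpiSCs. With either other scaling 12 were lower and 0 higher in FGF2/activin EpiSCs. The shares over all genes in these comparisons with ESCs are those just given. Nr0b1, Dppa5a, Tfcp2l1 and Nr5a2 averaged 4.63, 6.30, 6.23 and 4.59 in CHIR/XAV EpiSCs, 6.07, 5.29, 6.69 and 4.496 in FGF2/activin EpiSCs, and 11.74, 13.01, 11.33 and 9.54 in ESCs. Dppa3 averaged 5.28 in CHIR/XAV EpiSCs, 4.21 in FGF2/activin EpiSCs and 8.34 in ESCs. Pla2g1b, chosen for being high in both ESCs and CHIR/XAV EpiSCs, differed by -0.14 log2 units between CHIR/XAV EpiSCs and ESCs. Its relation to the naive markers was not tested. The 11 primed epiblast markers were all higher than in ESCs in both EpiSC groups. Over all genes 24.7% were higher for CHIR/XAV EpiSCs and 27.8% for FGF2/activin EpiSCs. Fgf5, Cldn6 and Sox11 averaged 8.86, 10.17 and 8.39 in CHIR/XAV EpiSCs, 8.88, 10.85 and 8.89 in FGF2/activin EpiSCs, and 5.25, 7.45 and 6.13 in ESCs. The DNA methyltransferase gene Dnmt3b averaged 10.11 in CHIR/XAV EpiSCs, 8.88 in FGF2/activin EpiSCs and 8.11 in ESCs. Of the core pluripotency factors, Nanog averaged 10.25 in CHIR/XAV EpiSCs, 9.86 in FGF2/activin EpiSCs and 12.37 in ESCs, and Utf1 averaged 11.504 in CHIR/XAV EpiSCs, 11.60 in FGF2/activin EpiSCs and 10.35 in ESCs.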

How the data were processed

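Total RNA from 9 samples was measured on single-colour Affymetrix arrays. The deposited log2 values hold 1 summary for each probe set on each array. The authors used RMA and Partek, per the submitters' processing notes, with no versions stated. The annotation gave 1 gene symbol to 21789 of 35399 probe sets, several to 1621 and none to 11989, and only the first kind entered the gene table. Symbols were updated by gene ID, with 19856 of 19938 genes matched in a RefSeq table of GRCm38.p6, used for names and gene order. For 999 genes with more than 1 probe set the brightest was kept. Arrays carry no read depth, and their number, 3 per group, limits the precision.

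Groups came from the sample titles. All 9 arrays entered 1 limma fit (lmFit, contrasts.fit and eBayes of limma 3.58.1, in R 4.3.3) with no covariates, and p-values were adjusted by Benjamini-Hochberg over 19938 genes with a threshold of 0.05. Simulated data served to test the fit for CHIR/XAV against FGF2/activin EpiSCs with 19938 genes, of which 200 were changed. There 72% of changes of 0.5 log2 units were found, and 100% of changes of 1, 2 or 6. Of 196 calls 10 were false. In the data 41.6% of genes were called in this comparison, a far larger share, so these rates need not hold there. Pla2g1b and the genes most like it were chosen by their values and were not tested.

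The members and lists were chosen with earlier results of these data known. The text names Pla2g1b, all Pla2g genes, the 10 genes most like Pla2g1b, its 5 measured neighbours on each side, and list members called at 2-fold or more, up to 4 per list and comparison. Xist, Uty, the genes of the pattern ranking, Esrrb, Otx2, Pou5f1 and the genes at the low end of the correlation were named outside this rule. Alternatives were quantile normalization, centring arrays on their medians, averaging a gene's probe sets, testing without the dimmest 40% of genes, a fit with array weights, a trended robust fit, a fit of 2 groups alone, a replicate block and leaving out each array.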

Additional observations from a re-analysis of the deposited data

How the results depend on the processing

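The Pla2g1b differences kept their direction under every alternative run. Leaving out 1 array at a time gave 6.17 to 6.23 for CHIR/XAV minus FGF2/activin EpiSCs, -0.18 to -0.09 for CHIR/XAV EpiSCs minus ESCs and -6.38 to -6.29 for FGF2/activin EpiSCs minus ESCs. With each array centred on its median the CHIR/XAV minus ESC difference moved to -0.25, because the median of all genes moved from -0.03 to -0.13 in that comparison. Relative to that median it was -0.11 under both scalings, which centring fixes in advance because it shifts all genes of an array alike. With quantile normalization the difference was -0.20, or -0.17 relative to the median of all genes. The number of other Pla2g genes called was 11 with median centring for CHIR/XAV EpiSCs against ESCs, where 7 were called with the deposited scaling, 9 with quantile normalization and 5 of the 9 tested once the dimmest 40% of genes were dropped. It was 7 without the dimmest 40% of genes for FGF2/activin EpiSCs against ESCs, where 11 were called with all genes, because only 9 of the 18 were then tested. Leaving out 1 array gave 8 to 9 calls among them for CHIR/XAV against FGF2/activin EpiSCs, 7 to 9 for CHIR/XAV EpiSCs against ESCs and 8 to 11 for FGF2/activin EpiSCs against ESCs. Over all genes the calls then ranged from 6923 to 8174, from 8438 to 9029 and from 10561 to 11793 in the same order. Deviations of same-numbered arrays from their group means had correlations of -0.07 to 0.24. Of these 1 of 9 was over 0.1, that of replicate 3 of FGF2/activin EpiSCs with replicate 3 of ESCs. Differently numbered arrays gave -0.23 to 0.18. Deviations from a mean of 3 arrays constrain each other, so these correlations say little about pairing. Replicate numbers were not taken to pair samples. A replicate block gave 8246, 9325 and 12202 calls over all genes and 8, 7 and 11 among the other Pla2g genes in the same order. Of single-gene results for the Pla2g family under the alternatives, 698 stayed on their side of the threshold, 17 gained a call and 14 lost one. No called difference reversed. The calls of Pla2g2d, Pla2g3, Pla2g4f and Pla2g12a for FGF2/activin EpiSCs against ESCs were among those lost, and the cause was not tested. The 10 genes most like Pla2g1b were recomputed with median centring, with quantile normalization and without each array in turn. All 10 remained in each case, except that 9 remained without ESC replicate 2.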

Other observations

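At the other end of the correlation with Pla2g1b stood genes high in FGF2/activin EpiSCs alone. The Y-linked demethylase gene Kdm5d (r = -0.998) averaged 4.73 in CHIR/XAV EpiSCs, 8.57 in FGF2/activin EpiSCs and 4.75 in ESCs. The same ESCs read 8.84 for Uty and 9.15 for Eif2s3y, other Y-linked genes, which averaged 4.28 and 4.41 in CHIR/XAV EpiSCs and 9.37 and 9.61 in FGF2/activin EpiSCs. The actin-sequestering thymosin gene Tmsb4x (r = -0.998) averaged 9.58 in CHIR/XAV EpiSCs, 12.02 in FGF2/activin EpiSCs and 9.42 in ESCs. The skeletal actin gene Acta1, the Myc antagonist gene Mxd4 and the growth factor gene Tgfb2 were likewise highest in FGF2/activin EpiSCs, with Tgfb2 at 5.28 in CHIR/XAV EpiSCs, 8.30 in FGF2/activin EpiSCs and 5.43 in ESCs. A negative correlation of at least 0.99 in size was reached by 21 genes, and a positive one by 10. These are descriptions of 9 arrays in 3 groups and carry no test.

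Probe sets without exactly 1 gene symbol, 13610 in number, entered no comparison. Of these, 11 were lower in FGF2/activin EpiSCs than in both other cultures by at least 2 log2 units, 0 by at least 4, and 7 were higher by at least 2. The largest shortfall was 3.02, in a probe set with no symbol that averaged 9.11 in CHIR/XAV EpiSCs, 6.09 in FGF2/activin EpiSCs and 9.53 in ESCs. A probe set shared by the glutathione transferase genes Gstp1 and Gstp2 averaged 8.43 in CHIR/XAV EpiSCs, 5.81 in FGF2/activin EpiSCs and 9.45 in ESCs. The probe set that Pla2g4b shares with Jmjd7 and a predicted gene averaged 5.95 in CHIR/XAV EpiSCs, 5.94 in FGF2/activin EpiSCs and 5.56 in ESCs.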
